A study of Mus musculus with 7 samples.

Results

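In this series, 10 genes of the circadian clock were followed across the series: the repressors Per1, Per2, Per3, Cry1 and Ciart, the activator Clock, the nuclear receptors Nr1d1 and Nr1d2, and the output factors Dbp and Tef. They were taken by name from a list that was chosen with earlier results of these data known. They are 10 of the 56854 gene identifiers that all count files share. Each of the 7 libraries is messenger RNA from the whole shoulder joint of 1 mouse, dissected 2 weeks after surgical repair of the supraspinatus tendon, a tendon of the rotator cuff, in the left shoulder. The comparison set 4 mice labelled Tnc-/- for tenascin C, a glycoprotein of the extracellular matrix, against 3 wild-type mice. Every animal had the same repair and there was no unoperated group. Strain, age, sex, the form of the Tnc allele and the hour of harvest are not given in the sources used here.

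The circadian clock is a feedback loop of transcription that runs in nearly every mammalian cell with a period of about a day. CLOCK pairs with BMAL1 (or NPAS2 with BMAL1) and activates genes through E-box sequences, among them the Per and Cry genes, whose proteins return to the nucleus and block that pair. A side loop of the REV-ERB repressors (Nr1d1, Nr1d2) and the ROR activators drives Bmal1, and Dbp and Tef carry the rhythm to output genes through D-box sequences. In most mouse tissues Bmal1 is highest when Dbp, Nr1d1 and the Per genes are low, so their level in a single sample depends on the hour at which it was taken. Per1 is also induced within an hour or so by glucocorticoids and by cAMP signalling, apart from the clock.

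CLOCK and BMAL1 bind at E-boxes, and a few promoter windows of the listed genes are shown because they hold one, with the second window of Per1 as one that does not. They are the 250 bases before the annotated start in RefSeq (GRCm38.p6), which held at least 1 window for 9 of the 10 genes, 13 windows in all. Lower case is used throughout and capitals mark the E-box, searched as CACGTG, which reads the same on both strands.
Per1, first start (chr11:69098699-69098948, + strand): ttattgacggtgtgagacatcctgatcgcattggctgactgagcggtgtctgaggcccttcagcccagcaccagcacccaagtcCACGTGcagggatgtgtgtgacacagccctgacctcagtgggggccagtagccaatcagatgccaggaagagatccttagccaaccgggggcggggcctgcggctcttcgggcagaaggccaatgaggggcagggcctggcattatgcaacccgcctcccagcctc
Per1, second start (chr11:69099902-69100151, + strand): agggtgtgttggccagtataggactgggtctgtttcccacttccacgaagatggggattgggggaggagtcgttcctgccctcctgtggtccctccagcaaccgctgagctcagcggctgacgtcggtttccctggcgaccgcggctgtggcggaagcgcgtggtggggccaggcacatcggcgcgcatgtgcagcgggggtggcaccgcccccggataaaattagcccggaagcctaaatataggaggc
Cry1 (chr10:85185055-85185304, - strand): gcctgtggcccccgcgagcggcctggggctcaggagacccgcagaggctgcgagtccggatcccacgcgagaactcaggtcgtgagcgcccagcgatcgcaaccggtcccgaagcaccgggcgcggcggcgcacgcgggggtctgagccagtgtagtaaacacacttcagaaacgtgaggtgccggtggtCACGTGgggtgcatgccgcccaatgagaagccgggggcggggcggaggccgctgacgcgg
Tef, second start (chr15:81811164-81811413, + strand): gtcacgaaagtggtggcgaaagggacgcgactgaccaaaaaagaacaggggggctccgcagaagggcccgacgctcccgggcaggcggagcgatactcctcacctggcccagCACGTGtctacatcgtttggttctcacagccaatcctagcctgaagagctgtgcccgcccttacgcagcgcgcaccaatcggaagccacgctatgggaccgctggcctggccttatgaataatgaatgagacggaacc
The E-box of Per1 begins 166 bases before the first start, that of Cry1 begins 60 bases before its start, and that of Tef 138 bases before the second start. The second window of Per1 held none. Of the 13 windows of the listed genes, 5 held an E-box: 1 each of Per1, Cry1 and Ciart, the last with 3 of them, and both of Tef. Of all 32851 mouse windows of the same length, 6.02% held one.

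The other motifs searched on both strands were the D-box TTATGTAA, in 0.819% of all windows, and the cAMP response element TGACGTCA, in 1.55%. No match of one motif overlapped a match of another in the windows of the listed genes. Per3 held the D-box at 2 places, shown here because no other gene of the list had this motif; capitals mark it.
Per3 (chr4:151044666-151044915, - strand): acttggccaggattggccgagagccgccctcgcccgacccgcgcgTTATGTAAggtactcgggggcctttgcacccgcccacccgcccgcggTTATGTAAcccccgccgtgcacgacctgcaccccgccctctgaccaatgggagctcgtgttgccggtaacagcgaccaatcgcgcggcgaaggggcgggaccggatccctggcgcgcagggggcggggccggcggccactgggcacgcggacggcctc
The windows of Clock, Nr1d1, Nr1d2 and Dbp held none of the 3 motifs, which says only that these letters are not in those 250 bases.

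The libraries held 13.5 to 18.5 M gene counts in wild type and 19.3 to 28.2 M in Tnc-/-. Tnc, the targeted gene, was at 352 ± 75.5 CPM (counts per M counts, M for mega, scaled between libraries by the TMM method; SD, n = 3) in wild type and at 41.8 ± 9.26 (n = 4) in Tnc-/-, where 698 to 1051 counts remained in every library. Each genotype was counted in its own run, so effects of the counting run and of genotype cannot be told apart. Wild-type libraries 2 and 3 stood apart from the other 5. Olfactory and vomeronasal receptor genes, which serve sensory neurons of the nose, summed to 1399 and 982 CPM there, against 89.1 in wild type 1 and 36.5 to 43.9 in Tnc-/-. In the same libraries genes spanning more than 100 kb were read higher than in Tnc-/- (median log2 ratio 1.40 and 1.11, against 0.17 in wild type 1). The clock genes and the gene lists are therefore also given without these libraries, which leaves wild type 1 against 4 Tnc-/- mice and assumes that the lone library varies as the Tnc-/- group does. The markers Tnmd (tendon), Acan and Col2a1 (cartilage), Bglap (bone) and Acta1 (skeletal muscle) were detected in every library, while the tendon factor Scx was listed at 0 in all. In such mixed tissue, fewer cells of a type and less RNA per cell cannot be told apart.

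Per1, the period protein gene that responds fastest to signals from outside the clock, was about 4 times higher in Tnc-/-. It read 22.6, 33.6 and 33.9 CPM in wild type 1 to 3 and 81.8, 99.9, 150.1 and 127 CPM in Tnc-/- 1 to 4. The groups did not overlap, and the lowest Tnc-/- library was above the highest wild-type library by more than the whole wild-type spread. The means were 30.03 ± 6.40 (SD, n = 3) and 115 ± 30.1 CPM (n = 4), a ratio of 3.82. Its log2 fold change was 1.93 (SE 0.25, adjusted p = 0.0065, edgeR's quasi-likelihood test with Benjamini-Hochberg adjustment over 17791 genes). Without wild type 2 and 3 it was 2.34 (SE 0.32, adjusted p = 0.0041, the same edgeR test). Ranked among the 13114 genes that averaged 5 CPM or more, Per1 stood 40th from the highest fold change. It kept its call whichever single library was left out, with log2 fold changes from 1.78 to 2.05.

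Per2, a paralog of Per1 in the same repressor complex, did not pass the test. Its levels were 27.3, 34.9 and 36.0 CPM in wild type and 34.1, 32.3, 51.6 and 44.6 CPM in Tnc-/-, and the groups overlapped. On the log2 scale the difference was 0.31 (SE 0.20, adjusted p = 0.27, edgeR's quasi-likelihood test), and without wild type 2 and 3 it was 0.57 (SE 0.25, adjusted p = 0.193, edgeR). Within each library the log2 ratio of Per1 to Per2 counts was -0.27, -0.06 and -0.09 in wild type and 1.26, 1.63, 1.54 and 1.52 in Tnc-/-; it depends on gene length and is read only between libraries. The pair therefore stood in a different proportion in every Tnc-/- library than in any wild-type library, and the ratio needs no scaling between libraries.

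Cry1, a cryptochrome that makes the repressor complex bind CLOCK and BMAL1, read 13.8, 18.7 and 19.4 CPM in wild type and 13.5, 11.1, 13.5 and 12.4 CPM in Tnc-/-. The groups were apart, but wild type 1 lay just above the highest Tnc-/- library. The log2 fold change of -0.45 (SE 0.21) did not pass the test (adjusted p = 0.13, edgeR's quasi-likelihood test). It was -0.14 without wild type 2 and 3 (adjusted p = 0.749, edgeR). With library totals in place of TMM it was -0.71 and passed (adjusted p = 0.046, edgeR).

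Per3 and Ciart, the remaining repressors, were listed at 0 counts in all 7 libraries. At these depths 0 counts would allow up to 3, or 0.111 to 0.199 CPM, for counting error only. Vamp3, the gene next to Per3 that codes for a vesicle fusion protein of most cells, and the clock output genes Usp2 and Wee1 were also at 0 in all 7. The zeros are therefore not read as absent transcripts, and neither gene was tested. Per3 lies within the span of Camta1 and Ciart within that of C920021L13Rik on the opposite strand in GENCODE M21, with no shared exon bases.

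**Figure D1:**
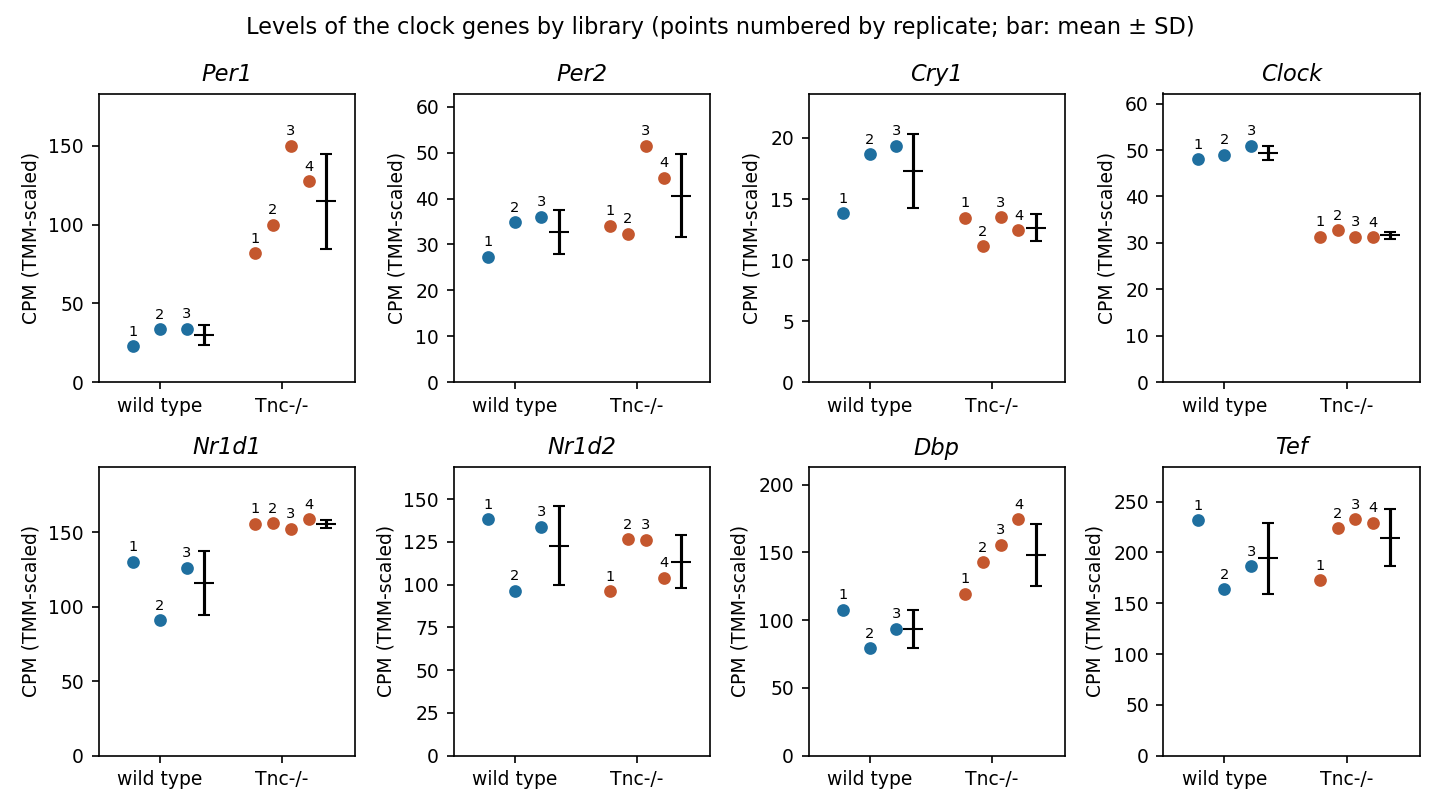
Level of each of the 8 detected clock genes in each library (y axis, TMM-scaled CPM from 0; x axis, genotype), with points numbered by replicate and the bar giving mean ± SD (wild type n = 3, Tnc-/- n = 4). Per1 and Dbp sit higher and Clock lower in every Tnc-/- library; Per2, Nr1d2 and Tef overlap between genotypes.

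Clock, whose protein binds E-boxes together with BMAL1, fell in Tnc-/-. It read 48.0, 49.0 and 51.0 CPM in wild type and 31.3, 32.8, 31.3 and 31.3 CPM in Tnc-/-. The groups were far apart, and each was tight: 49.3 ± 1.52 (SD, n = 3) against 31.7 ± 0.729 CPM (n = 4). This was a log2 fold change of -0.64 (SE 0.11, adjusted p = 0.0077, edgeR's quasi-likelihood test). The value was -0.60 (SE 0.16, adjusted p = 0.049, edgeR) against wild type 1 alone. With the summed receptor-gene level as a covariate it was -0.59 (SE 0.19) and no longer passed (adjusted p = 0.129, edgeR). That level was itself higher in every wild-type library than in any Tnc-/- library. The fit therefore cannot fully separate it from genotype. Clock spans 94.9 kb, and its level in wild type 2 and 3 averaged 0.06 above that in wild type 1 on the log2 scale.

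Bmal1 (listed under its older symbol Arntl), the obligate partner of CLOCK, behaved otherwise across the wild-type libraries. It read 13.7, 36.7 and 31.2 CPM in wild type and 18.1, 13.8, 12.04 and 10.5 CPM in Tnc-/-, so wild type 1 lay inside the Tnc-/- range. Over all libraries the log2 fold change was -0.998 (SE 0.34, adjusted p = 0.053, edgeR), and against wild type 1 alone it was -0.02 (adjusted p = 0.979, edgeR). It passed in 5 of 17 alternatives, among them library totals (-1.27, adjusted p = 0.0355, edgeR), DESeq2 (-1.04, adjusted p = 0.0232) and the fit without wild type 1 (-1.22, adjusted p = 0.000305, edgeR). Npas2, which can stand in for CLOCK, showed the same split, at 3.86, 17.0 and 13.8 CPM in wild type and 2.74 to 7.69 CPM in Tnc-/-. Its log2 fold change was -1.19 (SE 0.56, adjusted p = 0.139, edgeR) and turned to 0.38 without wild type 2 and 3, while without wild type 1 it passed (-1.52, adjusted p = 0.00306, edgeR). Both genes are long, with spans of 107 kb (Bmal1) and 169.5 kb (Npas2).

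Nr1d1, which codes for REV-ERB alpha, a repressor of Bmal1, read 130.2, 91.0 and 126 CPM in wild type and 156, 156, 152 and 159 CPM in Tnc-/-. Every Tnc-/- library was above every wild-type library, and the 4 values were close together (156 ± 2.64 CPM, against 116 ± 21.6 in wild type). A log2 fold change of 0.43 (SE 0.15) missed the threshold (adjusted p = 0.0597, edgeR's quasi-likelihood test). DESeq2 called it (0.39, adjusted p = 0.0303), as did edgeR without wild type 1 (0.61, adjusted p = 0.00344), where 64.2% of all genes passed. Without wild type 2 and 3 it was 0.25, and with the receptor-gene covariate 0.14 (adjusted p = 0.803, edgeR). With library totals the groups overlapped and the log2 fold change was 0.19 (adjusted p = 0.285, edgeR). Of its exon bases, 8.55% are shared with Thra, a thyroid hormone receptor gene on the opposite strand, which rose by 0.46 (SE 0.13, adjusted p = 0.0291, edgeR; named after its values were seen). Where the counting did not use strand, reads of the shared bases cannot be told apart. In Tnc-/-, 11.4 to 11.6% of listed reads were marked ambiguous and entered no gene. Whether reads of the shared bases are among them was not tested.

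Nr1d2, the paralog that codes for REV-ERB beta, read 138, 96.4 and 134 CPM in wild type and 96.3, 127, 126 and 104 CPM in Tnc-/-. The groups overlapped over most of their range. Its log2 fold change was -0.12 (SE 0.17, adjusted p = 0.635, edgeR), and -0.29 (SE 0.19, adjusted p = 0.351, edgeR) without wild type 2 and 3.

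Dbp, a PAR bZIP activator with one of the strongest rhythms among mouse transcripts, was higher in Tnc-/-. It read 108, 79.3 and 93.6 CPM in wild type and 119, 143, 156 and 175 CPM in Tnc-/-. The groups did not overlap, with wild type 1 close to Tnc-/- 1. The means were 93.5 ± 14.2 (SD, n = 3) and 148 ± 23.1 CPM (n = 4), a ratio of 1.58. As a log2 fold change this was 0.66 (SE 0.17, adjusted p = 0.0209, edgeR's quasi-likelihood test). The call was lost without wild type 2, wild type 3, Tnc-/- 3 or Tnc-/- 4, where the log2 fold change was 0.56, 0.67, 0.64 and 0.57 and the adjusted p 0.071, 0.0762, 0.0653 and 0.0565 (edgeR). Without wild type 2 and 3 together the log2 fold change was 0.45 (SE 0.21). With the receptor-gene covariate it was 0.32 (SE 0.26) and did not pass (adjusted p = 0.549, edgeR).

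A share of 18.0% of the exon bases of Dbp lies over Sphk2, a sphingosine kinase gene on the opposite strand. Sphk2 read 17.3, 16.9 and 15.2 CPM in wild type and 34.0, 33.4, 34.6 and 35.3 CPM in Tnc-/-, with a log2 fold change of 1.06 (SE 0.14, adjusted p = 0.0067, edgeR; named after its values were seen). Its part in the Dbp difference was not tested.

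Tef, a PAR bZIP factor with a flatter rhythm than Dbp, read 232, 164 and 186 CPM in wild type and 173, 224, 233 and 229 CPM in Tnc-/-. The groups overlapped, since wild type 1 was among the highest and Tnc-/- 1 among the lowest. The log2 fold change of 0.15 (SE 0.17, adjusted p = 0.554, edgeR) turned to -0.12 without wild type 2 and 3 and to -0.09 with library totals. Without wild type 1 it was 0.39 and passed (adjusted p = 0.048, edgeR), where 64.2% of all genes did. Within a library, Dbp to Tef gave log2 ratios of -1.11, -1.05 and -0.99 in wild type and -0.53, -0.65, -0.58 and -0.39 in Tnc-/-. That ratio was alike in all 3 wild-type libraries and lower there than in every Tnc-/- library.

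Of the 10 listed genes, 8 passed the filter on low counts and 3 of these passed the test: Per1 and Dbp rose and Clock fell. Among all 17791 genes tested, 29.0% passed (10.3% higher and 18.7% lower), so 3 of 8 is near the level of the whole table. Groups did not overlap for 5 of the 8 (Per1, Dbp and Nr1d1 higher, Cry1 and Clock lower), against 35.1% of all tested genes (17.7% higher, 17.4% lower). The median log2 fold change was 0.23 over the 8 genes and -0.0009 over all genes; with library totals these were -0.02 and -0.24. With library totals 30.9% of all genes passed (5.35% higher, 25.5% lower) and 4 of the 8, Cry1 joining the 3. DESeq2 called 35.1% of all genes and 4 of the 8, Nr1d1 joining them, and limma voom called 5.47% and 2, Per1 and Clock. Bonferroni adjustment of the edgeR p-values left 0.124% and 0 of the 8, with 4 at an unadjusted p under 0.05. Without wild type 1 these shares were 64.2% and 6 of the 8. Without wild type 2 and 3, 4.45% of 18530 genes passed (2.53% higher, 1.92% lower) and 2 of the 8 did, Per1 and Clock. With the receptor-gene covariate 2.32% passed, and of the 8 only Per1 did, at 2.46 (SE 0.40, adjusted p = 0.0117, edgeR). That covariate also separated the genotypes, so calls lost in this fit are not read as an absent difference.

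**Figure D2:**
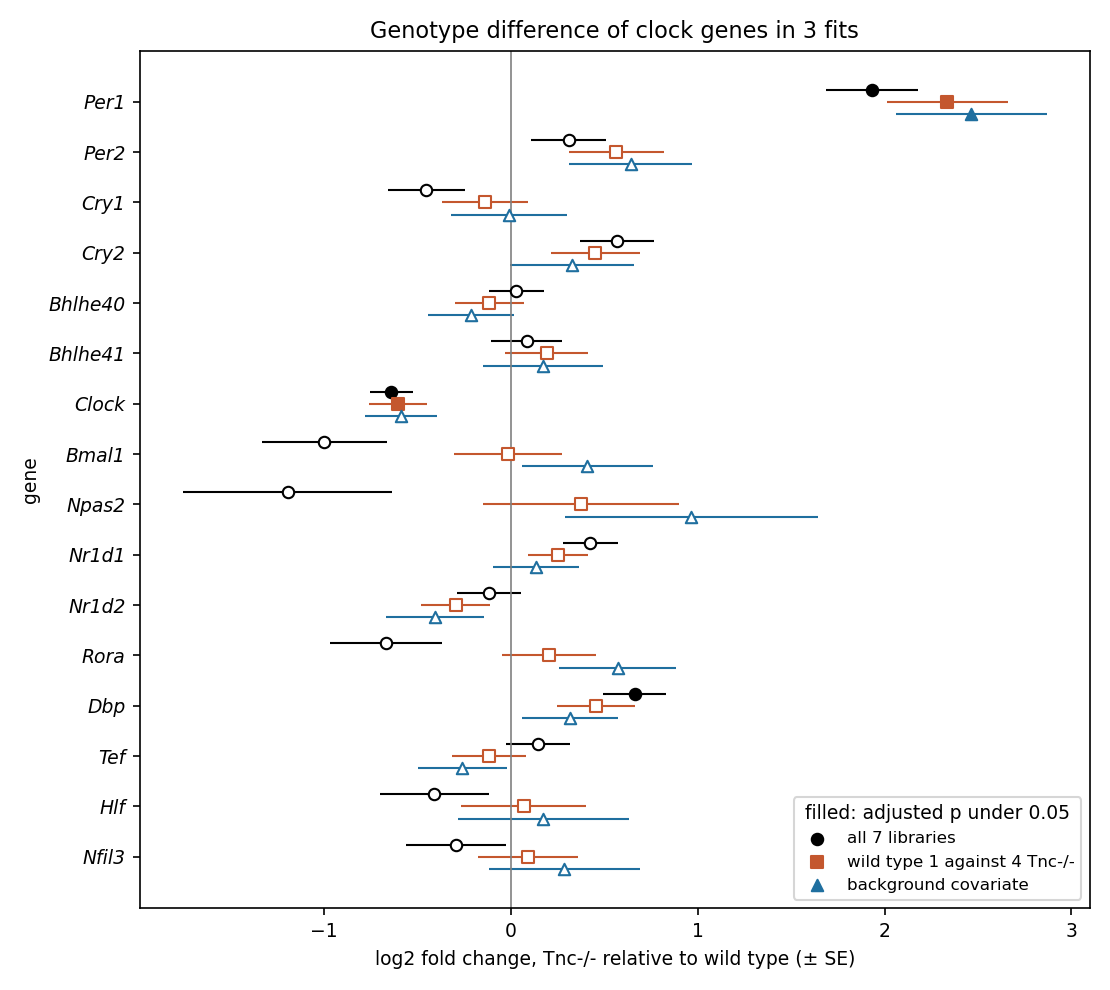
Log2 fold change, Tnc-/- relative to wild type, with its SE (x axis) for 16 clock genes (y axis): black circles, all 7 libraries; orange squares, wild type 1 against 4 Tnc-/- libraries; blue triangles, all 7 with the receptor-gene level as a covariate. Filled symbols passed an adjusted p of 0.05. Per1 lies between 1.93 and 2.46 in all 3, Clock between -0.64 and -0.59, and Bmal1 and Npas2 cross 0.

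Wild type 2 and 3 differed widely from wild type 1 in some clock genes and little in others. Of the 7 clock genes plotted with spans over 100 kb, Rorb averaged higher there by 4.04 on the log2 scale, Npas2 by 1.87, Bmal1 by 1.27 and Rora by 1.17, while Fbxw11 stood at 0.40, Gsk3b at 0.11 and Btrc at -0.04. Among shorter genes, Fbxl21 (15.4 kb) stood at 2.64 and Bmal2 (37.5 kb) at 1.17. For the 8 detected genes of the list, with spans from 5.12 kb (Dbp) to 94.9 kb (Clock), the same difference ran from -0.40 (Tef) to 0.56 (Per1). Per1 spans 14.7 kb, and in a fit to genes of at most 30 kb alone its log2 fold change was 1.70 (adjusted p = 0.0044, edgeR), where 19.9% of genes passed.

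**Figure D3:**
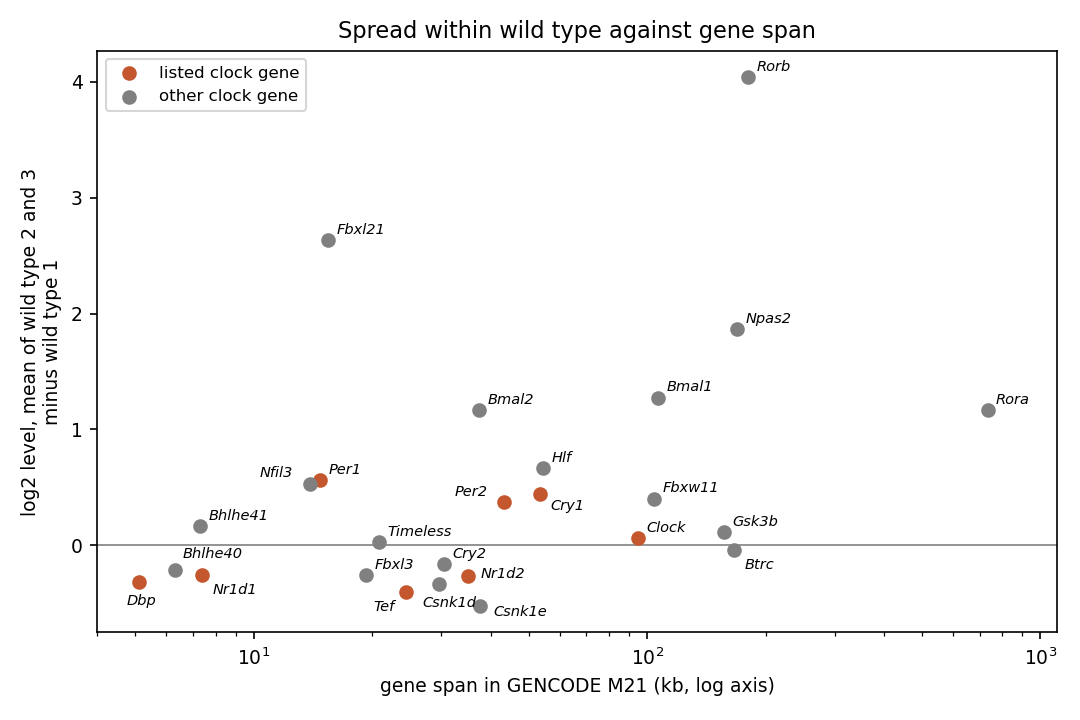
Difference in log2 level between wild type 2 and 3 (mean) and wild type 1 (y axis) against gene span in GENCODE M21 (x axis, kb, log scale) for listed clock genes (orange) and other clock genes (grey). The listed genes lie between -0.40 and 0.56; of the genes over 100 kb, Bmal1, Npas2, Rora and Rorb lie between 1.17 and 4.04 and Fbxw11, Gsk3b and Btrc between -0.04 and 0.40, and the short Fbxl21 lies at 2.64.

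Ratios within a library set the 2 limbs of the loop against each other without any scaling between libraries. The log2 ratio of Per1 to Clock was -1.08, -0.55 and -0.59 in wild type and 1.38, 1.61, 2.26 and 2.03 in Tnc-/-. That of Nr1d1 to Clock was 1.44, 0.89 and 1.31 in wild type and 2.31, 2.25, 2.28 and 2.34 in Tnc-/-, and that of Dbp to Clock was 1.17, 0.69 and 0.88 against 1.93, 2.12, 2.31 and 2.48. All 3 ratios were higher in every Tnc-/- library than in any wild-type library. This had to be so, because Per1, Nr1d1 and Dbp were each higher and Clock lower in every Tnc-/- library. The separation therefore adds nothing to the levels of the single genes. The ratio of Dbp to Bmal1, the usual pair of opposite phase, did not separate the genotypes. It was 2.97, 1.11 and 1.59 in wild type and 2.72, 3.38, 3.69 and 4.06 in Tnc-/-. That of Nr1d1 to Bmal1 did not either, at 3.24, 1.31 and 2.02 in wild type and 3.10, 3.50, 3.66 and 3.92 in Tnc-/-. In both, wild type 1 exceeded Tnc-/- 1.

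Levels of different genes can be set side by side only per length. Per kb of exon, wild type held 37.6 ± 7.00 CPM of Nr1d1, 31.3 ± 4.75 of Dbp, 24.7 ± 4.41 of Tef and 22.7 ± 4.26 of Nr1d2 (SD, n = 3). Exon lengths were taken over all annotated exons of a gene, and neighbours in that order differed by less than the sum of their SDs. A lower tier held Per2 at 5.59 ± 0.808, Per1 at 5.33 ± 1.14 and Cry1 at 5.18 ± 0.901 CPM per kb, which did not differ beyond their spread, and then Clock at 3.59 ± 0.111. In Tnc-/- (n = 4) Per1 left this tier at 20.4 ± 5.35 CPM per kb, next to Nr1d2 at 20.95 ± 2.87. Per2 was at 6.94 ± 1.55, Cry1 at 3.78 ± 0.332 and Clock at 2.31 ± 0.0531, while Nr1d1 was at 50.6 ± 0.859, Dbp at 49.5 ± 7.73 and Tef at 27.3 ± 3.59. By the same measure Nr1d1 and Dbp did not differ from each other, nor did Tef, Nr1d2 and Per1, while Per2, Cry1 and Clock each lay below the gene before them.

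The rest of the pathway was read from a list of 34 clock genes, of which 24 are not among the 10. Of those 24, 22 were tested and 6 passed, 3 in each direction, a share of 27.3% beside 29.0% of all genes. Csnk1d and Csnk1e, the casein kinases that mark PER proteins for turnover, rose by 0.49 (SE 0.14) and 0.55 (SE 0.17), and Timeless, known mainly from replication forks, rose by 0.58 (SE 0.15). Fbxl21, an F-box gene for cryptochrome turnover, fell by 3.31 (SE 0.83), and Fbxw11, an F-box gene for PER turnover, by 0.42 (SE 0.13). Adjusted p ran from 0.02 (Fbxl21) to 0.0449 (Fbxw11) over these 5, in edgeR's quasi-likelihood test. Rorb, the ROR receptor gene of brain and retina, was the sixth, at 28, 556 and 461 counts (1.503, 36.9 and 28.0 CPM) in wild type and 3 to 13 counts in Tnc-/-. It passed the filter on low counts through the wild-type libraries alone, so it had to differ and its fold change is not given. With library totals 0 of the 22 rose and 6 fell: Csnk1d, Csnk1e and Timeless were then at 0.25, 0.32 and 0.34 (adjusted p = 0.114, 0.103 and 0.141, edgeR). In the fit without wild type 2 and 3, 0 of the 22 passed in edgeR, with 5 at an unadjusted p under 0.05. There Timeless was at 0.59, Csnk1d at 0.27, Csnk1e at 0.22, Fbxw11 at -0.15 and Fbxl21 at -0.70. Of the 7 fits that left out 1 library, Csnk1d, Csnk1e and Fbxw11 were each called in 1, the fit without wild type 1, and Timeless and Fbxl21 in 2. Fbxl21 without wild type 2 was at -2.19 (adjusted p = 0.0932, edgeR). Leaving out wild type 1 raised the count to 13 of 22 (59.1%), beside 64.2% of all genes. Over all 7 libraries DESeq2 called 8 of the 22 and limma voom 0, with 7 at an unadjusted p under 0.05.

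The other named genes of the loop did not pass over all 7 libraries, but Cry2 (0.72, adjusted p = 0.00922) and Rora (-0.87, adjusted p = 0.00117) did in edgeR without wild type 1, and Cry2 also with no filter on low counts (adjusted p = 0.045, edgeR). Cry2, the second cryptochrome, read 22.7, 17.2 and 23.1 CPM in wild type and 27.0, 26.1, 32.2 and 39.5 CPM in Tnc-/-, groups that did not overlap, with a log2 fold change of 0.57 (SE 0.20, adjusted p = 0.0616, edgeR) and of 0.45 (adjusted p = 0.265, edgeR) without wild type 2 and 3. Bhlhe40 and Bhlhe41, which code for repressors that compete at E-boxes, were at 0.03 and 0.08 (adjusted p = 0.897 and 0.764, edgeR). Rora, an activator of Bmal1, was at -0.67, and Hlf and Nfil3, an activator and a repressor at D-boxes, were at -0.41 and -0.29. Of these, Rora, Hlf, Nfil3 and Bhlhe40 changed sign without wild type 2 and 3.

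Output genes that follow the clock in many organs gave little beyond this. Of 5 listed, Tsc22d3, Tspan4 and Nampt were tested, and 0 passed in edgeR, DESeq2 or limma voom, with 1 at an unadjusted p under 0.05 in each. Without wild type 1, Tsc22d3 and Tspan4 passed in edgeR (66.7%, beside 64.2% of all genes). Tsc22d3, a glucocorticoid-induced zipper protein gene, was at 96.7, 112 and 101 CPM in wild type and 112, 121, 176 and 151 CPM in Tnc-/- (log2 fold change 0.44, SE 0.18, adjusted p = 0.0929, edgeR).

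Per1 is also an immediate early gene and a glucocorticoid target, so lists of such genes, and of genes that respond to temperature, were read beside it. Of 14 immediate early genes 3 rose, or 21.4%, beside 10.3% of all genes, and none fell: Nr4a1, an orphan nuclear receptor, by 0.91 (SE 0.19), Btg2 by 0.99 (SE 0.23) and Junb by 0.74 (SE 0.21). Nr4a1 read 40.6, 62.3 and 58.7 CPM in wild type and 84.7, 121, 100.5 and 99.9 CPM in Tnc-/-, and it was the 1 gene of the list that passed without wild type 2 and 3. The median of the list was 0.19, with 11 genes above 0; with library totals it was -0.06, with 5 above 0 and 2 called, and without wild type 1, where 64.2% of all genes passed, 5 were called. Of 11 tested glucocorticoid targets 2 rose, or 18.2%, beside 10.3% of all genes: Per1 itself and Ddit4, an inhibitor of mTOR signalling, by 1.05 (SE 0.31, adjusted p = 0.0338, edgeR). Per1 prompted the reading of this list, so its own rise does not count for the list. Apart from it only Ddit4 rose. The median was 0.24. With library totals it was 1.0e-04, with 6 above 0 and Per1 alone called, and without wild type 1 the count was 4. Without wild type 2 and 3 the median was 0.51, and Ddit4 was at 1.18. Fkbp5 and Zbtb16, named after their values were seen, were higher in every Tnc-/- library than in wild type 1. Fkbp5 read 30.4, 51.8 and 48.6 CPM in wild type and 48.02 to 52.9 CPM in Tnc-/-. Zbtb16 read 12.02, 49.9 and 30.6 CPM in wild type and 29.03 to 51.8 CPM in Tnc-/-. Over all 7 libraries the groups overlapped for both, and neither passed (0.20 and 0.43, adjusted p = 0.4365 and 0.4664, edgeR). Both were called with the receptor-gene covariate, which also separated the genotypes. Of 8 heat and cold responsive genes 1 rose (12.5%, beside 10.3% of all genes), the chaperone gene Dnajb1, by 0.62 (SE 0.19); without wild type 1 the count was 6, and 0 did so without wild type 2 and 3 in edgeR, with 0 at an unadjusted p under 0.05.

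The hour and order of harvest are not given in the sources used here, so the part of harvest time in the Per1, Dbp and Clock differences was not tested. Among the Tnc-/- mice, libraries 3 and 4 held the highest Per1, Per2 and Dbp, while Nr1d2 was higher in 2 and 3 and Clock was at 31.3 CPM in 3 of the 4. The same genotype difference also carried markers of other cell types. Summed over the list, 13 skeletal muscle genes were at 30046 to 41232 CPM in wild type and 43668 to 65703 in Tnc-/-. Of the 13, 3 were called higher (23.1%, beside 10.3% of all genes), Myh4 (1.18, SE 0.22) and Ryr1 (1.28, SE 0.26) foremost. The median log2 fold change was 0.61, and 0.37 without wild type 2 and 3. Of 12 tested red cell genes 8 rose, or 66.7% (Ank1 by 1.76, Sptb by 1.52), with a median of 1.25, and of 0.74 without wild type 2 and 3. They summed to 4864 to 9274 CPM in wild type and 13571 to 26674 CPM in Tnc-/-, with Alas2 listed at 0 in all libraries. Of 13 neutrophil and marrow genes 9 rose, or 69.2% (Cebpe by 1.66, Camp by 1.41), with a median of 1.15, and of 0.54 without wild type 2 and 3. They summed to 3003 to 6315 CPM in wild type and 7000.4 to 11899 CPM in Tnc-/-. With the receptor-gene covariate 0 genes of these 3 lists passed in edgeR, beside 2.32% of all genes, with 1, 2 and 1 at an unadjusted p under 0.05. Without wild type 1 the counts were 12, 11 and 13, where 64.2% of all genes passed. The part of these 3 lists in the clock gene differences was not tested.

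The genes most like the mean course of Per1, Per2, Nr1d1, Nr1d2, Dbp and Tef were ranked by Pearson's r of log2 CPM over the 7 libraries to the mean standardised profile of these 6. Of 12309 genes ranked, the first 5 were Eef2kmt (r = 0.985), Smad3 (0.979), Shc2 (0.977), Bace1 (0.977) and Zcchc14 (0.968). These points share their libraries and scaling, and r is given as a description. Shc2 rose by 0.60 (SE 0.19, adjusted p = 0.0419, edgeR), and the other 4 did not pass; without wild type 2 and 3 it was at 0.46 (adjusted p = 0.19, edgeR). The 6 genes themselves had an r of 0.943 (Dbp), 0.849 (Nr1d1), 0.821 (Tef), 0.797 (Per1), 0.607 (Per2) and 0.338 (Nr1d2) to the profile they helped to form.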

How the data were processed

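Messenger RNA of whole shoulder joints was sequenced for 3 wild-type and 4 Tnc-/- mice, 1 library per mouse. The values deposited by the authors are unnormalised read counts for each gene; the tools named are FastQC 0.11.9, HISAT2 2.2.1, HTSeq 2.0.2 and DESeq2 1.38.3 on GRCm39 (mm39), per the submitters' processing notes. Whether the counting used strand is not given in the sources used here. The files of wild type listed 56980 identifiers and those of Tnc-/- 56941, so they come from different counting runs. In the Tnc-/- files, 5 entries that name no gene held 30.1 to 32.7% of listed reads and were left out. Reads marked ambiguous were among them, at 11.4 to 11.6%. No value column was left unmapped (0 columns).

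Genes passing filterByExpr entered edgeR 4.0.16 (R 4.3.3; TMM scaling, robust quasi-likelihood F test, genotype as the 1 term), adjusted by Benjamini-Hochberg over all tested genes, threshold 0.05. The procedure was tested on simulated data. SE is the log2 fold change over the root of F. CPM are counts per M counts of the TMM-scaled library. P-values set the genotype difference against the spread between these mice, with the spread of each gene drawn toward that of other genes. They cannot tell genotype from counting run. Genes said to have risen or fallen passed this test, and the amounts are on the log2 scale. Gene spans and exons are from GENCODE M21 (GRCm38), which held 91.4% of identifiers; promoters are from RefSeq (GRCm38.p6), a build other than that of the counts, and serve only for their letters.

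Named are the 10 genes, 10 further clock genes whatever their values (1 is not reported here), any other gene of the 34-gene clock list past the threshold, the 2 genes of smallest p from each context or cell type list, Tnc, and the 5 genes most like the members' profile with at least 5 CPM; other genes (Junb, Tsc22d3, Thra, Sphk2, Fkbp5, Zbtb16, Gsk3b, Btrc, Bmal2, genes listed at 0 or overlapping a member, tissue markers) were chosen after their values were seen. The members and lists were chosen with earlier results of these data known. Alternatives were DESeq2 1.42.0, limma voom (limma 3.58.1), other scalings and filters, Bonferroni adjustment, each library left out, wild type 2 and 3 left out, a receptor-gene covariate, genes of at most 30 kb, and a replicate block. The same-numbered mice were checked for pairing.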

Additional observations from a re-analysis of the deposited data

Results flagged for a closer look

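Of 44 values tested for a library far from the other 3 of its Tnc-/- group, 3 stood out, where chance gives about 1 in 20. Clock was at 32.8 CPM in Tnc-/- 2 and at 31.3 CPM in each of the others, a gap of 0.968 of the group's range but a small one in CPM beside the difference between genotypes. Tef was at 172.6 CPM in Tnc-/- 1, below the 224 to 233 CPM of the others (0.852 of the range). Rorb was at 0.167 CPM in Tnc-/- 2, which is 3 counts, below 0.481 to 0.523 CPM in the others (0.881 of the range).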

How the results depend on the processing

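Per1 passed in 17 of 18 alternatives, with log2 fold changes from 1.67 to 2.46, and missed only under Bonferroni adjustment (0.519). Clock passed in 14 of 17 and Dbp in 9 of 18. Of the clock genes called (3 of 8), Bonferroni left 0, the covariate 1, and leaving out 1 library gave 2 to 6. Of the wider list (9 of 30), limma voom called 2, Bonferroni 0, the fit without wild type 2 and 3 gave 2, the covariate 1, genes of at most 30 kb 4, and leaving out 1 library gave 3 to 19. Of all genes (5159), limma voom called 973, Bonferroni 22, the covariate 413, the fit without wild type 2 and 3 gave 825, genes of at most 30 kb 1995, and leaving out 1 library gave 2229 to 14113, the highest without wild type 1. Without wild type 1, Nr1d1 (0.61), Cry1 (-0.50), Tef (0.39), Bmal1, Npas2, Cry2 and Rora also passed.

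Replicate numbers did not pair the mice: the correlations of same-numbered libraries were -0.0053, 0.10 and -0.0055, and wild type 1 and 3 correlated best with another number. With the replicate number as a block over replicates 1 to 3, 1713 genes passed (2904 in the same libraries without it), 1 of the 8 clock genes (Per1) and 1 of the wider list.

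Signs turned for genes that had not passed, apart from Fbxl21. Nr1d2 was at 0.068 without wild type 1 and Nfil3 at 0.016 without wild type 2 (from -0.44 to 0.016 with 1 library left out). Without wild type 2 and 3, Tef was at -0.12, Npas2 at 0.38, Nfil3 at 0.090, Hlf at 0.070, Rora at 0.20 and Bhlhe40 at -0.12. With the covariate, Tef was at -0.26, Bmal1 at 0.41, Npas2 at 0.97, Nfil3 at 0.29, Hlf at 0.17, Rora at 0.57, Bhlhe40 at -0.21 and Fbxl21 at 0.31. With library totals, Tef was at -0.091, Bhlhe40 at -0.21, Bhlhe41 at -0.17 and Eef2kmt at -0.028. With genes of at most 30 kb, Tef was at -0.060, Bhlhe40 at -0.18, Bhlhe41 at -0.14 and Eef2kmt at -4.0e-04. Bhlhe40 was also at -0.0135 with DESeq2, -0.0132 with its size factors, -0.049 with 10 counts in every library, -0.041 with the block, and between -0.053 and 0.20 with 1 library left out. The causes were not tested. Genes over 30 kb have no value in the short-gene fit.

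Depth was 13.5 to 28.2 M counts, and 3 wild-type mice, with 2 libraries that stand apart, limit every comparison. So few mice leave small differences of Per2, Nr1d2 and Tef unresolved.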

Other observations

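Genes named from the cell type lists and not described above gave these values, beside 10.3% of all genes called higher and 18.7% lower. Plin4 and Adipoq, lipid droplet and adipokine genes of fat cells, were 2 of 9 tested adipocyte genes that rose, by 1.49 and 0.63. Mkx, a tendon factor, was the 1 of 7 tested tendon genes that fell (by 0.92), and Col11a2 the 1 of 8 cartilage genes that rose (by 1.20). Of 8 bone genes, Bglap (osteocalcin) rose by 0.55 and Phex, a membrane peptidase of osteocytes, fell by 0.81. All are log2 fold changes past edgeR's test over 7 libraries. Of the 7 fits that left out 1 library, Plin4 was called in 7, Phex in 4, Col11a2 in 3, Adipoq and Bglap in 2 and Mkx in 1. Of 9 macrophage genes 0 passed in edgeR, DESeq2 or limma voom, with 0, 1 and 1 at an unadjusted p under 0.05, while without wild type 1 in edgeR 7 passed, all higher, beside 64.2% of all genes, and the bone list went from 2 to 5. Without wild type 2 and 3, 0 genes of the adipocyte, tendon, cartilage, bone and macrophage lists passed in edgeR, with 4, 2, 2, 2 and 1 at an unadjusted p under 0.05. The median of the adipocyte list was 0.44 over all libraries and 0.74 in that fit; for tendon it went from 0.0071 to -0.25, for cartilage from 0.0025 to -0.24, for bone from 0.23 to -0.12 and for macrophages from 0.39 to -0.19.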
